A study of Rattus norvegicus with 6 samples.

Results

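In all, 10 channel genes with which sensory neurons and their neighbours detect touch, acid and ATP were followed across a rat model of ischaemic limb pain and its treatment with a TNF blocker. They were taken by gene symbol as Piezo1, Piezo2, Asic1, Asic2, Asic3, P2rx2, P2rx3, P2rx4, P2rx7 and Ano1, and all 10 of 10 were found among the 22864 genes of the count table. Their gene identifiers there are 361430 for Piezo1, 307380 for Piezo2, 79123 for Asic1, 25364 for Asic2, 286920 for Asic3, 114115 for P2rx2, 81739 for P2rx3, 29659 for P2rx4, 29665 for P2rx7 and 309135 for Ano1. The libraries came from wild-type rats, and the ring size named is one for male rats. The sources used here do not name strain or age. All groups received daily intrathecal injections starting after 2 days, and lumbar dorsal root ganglia (DRG, L4 to L6, injured side), which hold the cell bodies of sensory neurons, were taken on day 7. Sham+Veh rats had pentobarbital anaesthesia alone and vehicle. CPIP+Veh rats had a hind paw made ischaemic by a tight O-ring above it for 3 h under the same anaesthesia, and vehicle. CPIP+ETA rats had the ring and etanercept, a soluble TNF receptor fusion protein. Each group has 2 libraries, written as Sham+Veh 1 and 2 and so on, of 18285251 to 19981250 counts. The labels do not tie libraries to animals or pools, so every p-value rests on library-to-library spread that may be technical only.

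PIEZO1 and PIEZO2 are very large channels opened by stretch of the membrane, and PIEZO2 is the main channel of light touch and position sense in sensory neurons. Acid-sensing ion channels (ASICs) are trimers that pass sodium when the outside of the cell turns acidic, as happens in ischaemic tissue. P2X receptors are trimers opened by extracellular ATP from damaged or stretched cells. P2X3, alone or with P2X2, serves nociceptors, while P2X4 and P2X7 are best known in glia and immune cells. ANO1 (TMEM16A) is a chloride channel opened by calcium, and in sensory neurons chloride leaving through it depolarises the cell.

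None of the 10 members changed between groups past the test. In each of the 3 comparisons, edgeR's quasi-likelihood test called 0 of the 10 at a Benjamini-Hochberg adjusted p under 0.05, and 0 had an unadjusted p under 0.05 (4.94%, 5.15% and 6.37% of all genes tested did so in the order below). DESeq2 also called 0 members in each comparison. The background was low as well: the test called 0.0193% of the 15531 genes tested for CPIP+Veh against Sham+Veh, 0% for CPIP+ETA against CPIP+Veh and 0.0193% for CPIP+ETA against Sham+Veh. All 10 members passed the filter on low counts. In bulk tissue fewer cells of a type and less RNA per cell cannot be told apart, for any value below. Their median log2 fold change was -0.0135 in the first comparison (all genes tested -0.00314), 0.0429 in the second (all genes -0.00158) and 0.069 in the third (all genes -0.00198). The fold change was above 0 for 4, 8 and 7 of the 10 members, where 49%, 49.6% and 49.3% of all genes lay above 0. With levels scaled to pan-neuronal markers these counts were 0, 9 and 3 of 10 (18.9%, 60.1% and 24.5% of all genes), so no direction is read from them. The groups did not overlap for 2 of 10 members in each comparison, below the 37.1%, 32.6% and 35.7% of all genes. Of these, 0 members were higher in CPIP+Veh than in Sham+Veh without overlap (17.6% of all genes). The comparisons share libraries, so their values are not independent of each other.

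**Figure D1:**
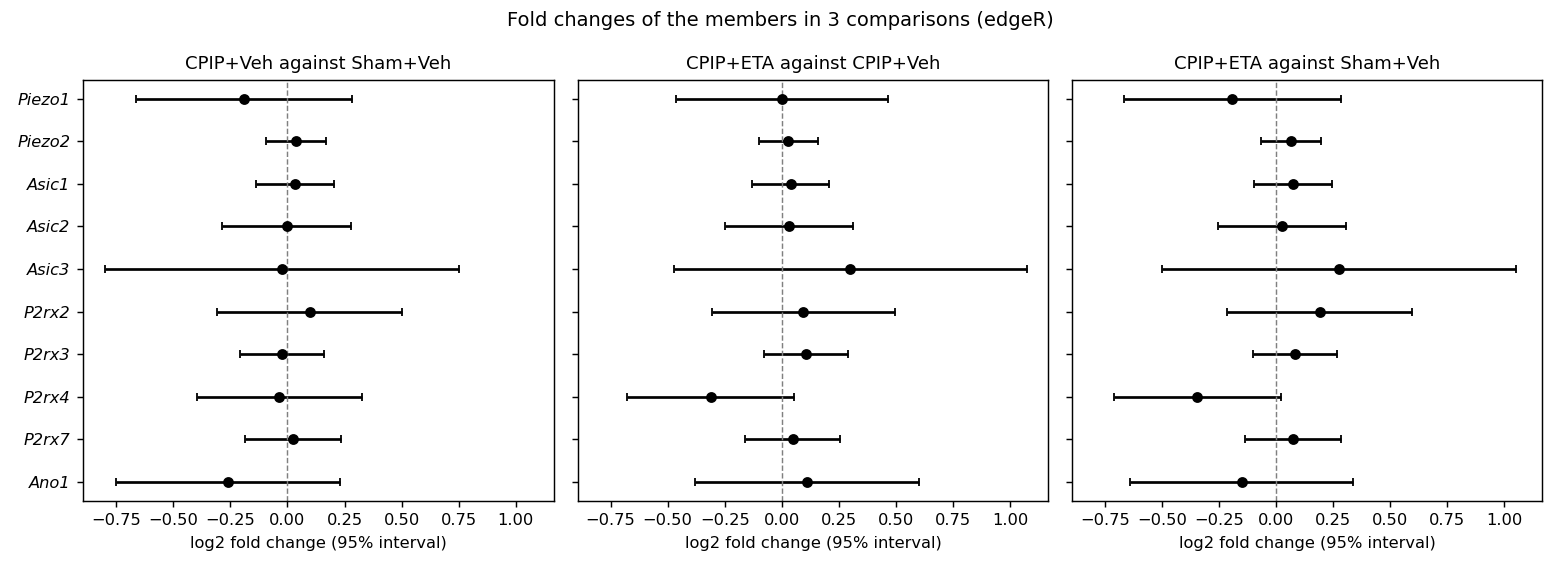
Log2 fold change of each member (points) with its 95% interval from edgeR (bars) in the 3 comparisons, with 0 dashed. Every interval includes 0; Piezo2 has the narrowest bars and Asic3 the widest, and P2rx4 lies farthest below 0 in both comparisons of CPIP+ETA.

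The precision differed widely between members. For Piezo2, P2rx3, Asic1 and P2rx7 the 95% intervals for CPIP+Veh against Sham+Veh ran from 0.937 to 1.12 fold, 0.866 to 1.12 fold, 0.910 to 1.15 fold and 0.880 to 1.18 fold. For Asic3 the interval ran from 0.574 to 1.68 fold, for Ano1 from 0.594 to 1.17 fold and for Piezo1 from 0.631 to 1.22 fold. The intervals of the first group of genes were thus much the narrower. These intervals are for each gene by itself and are not adjusted for the number of genes.

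Levels are given as TMM-scaled CPM, edgeR's counts relative to a library's scaled size. As no transcript lengths were used, levels of different genes are not ranked against each other. All 10 of 10 pan-neuronal markers were detected, with a summed level of 12740 to 12910 CPM in Sham+Veh, 13820 to 13900 in CPIP+Veh and 13200 to 13920 in CPIP+ETA. This sum, which the pan-neuronal scaling uses, weighs abundant genes most. Of the 10, 5 were higher in CPIP+Veh than in Sham+Veh without overlap (17.6% of all genes) and 2 lower (19.5%). Tubb3 stood at 3605 and 3648 CPM in Sham+Veh and 4034 and 4001 in CPIP+Veh. Rbfox3 stood at 84.6 and 81.4 CPM in Sham+Veh and 74.5 and 70.9 in CPIP+Veh. Markers of satellite glia (2185 to 2527 CPM over the 6 libraries), Schwann cell myelin (9166 to 13920) and macrophages (203.6 to 276.6) were present too, and no marker of the lists in the table was at 0 in every library.

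**Figure D2:**
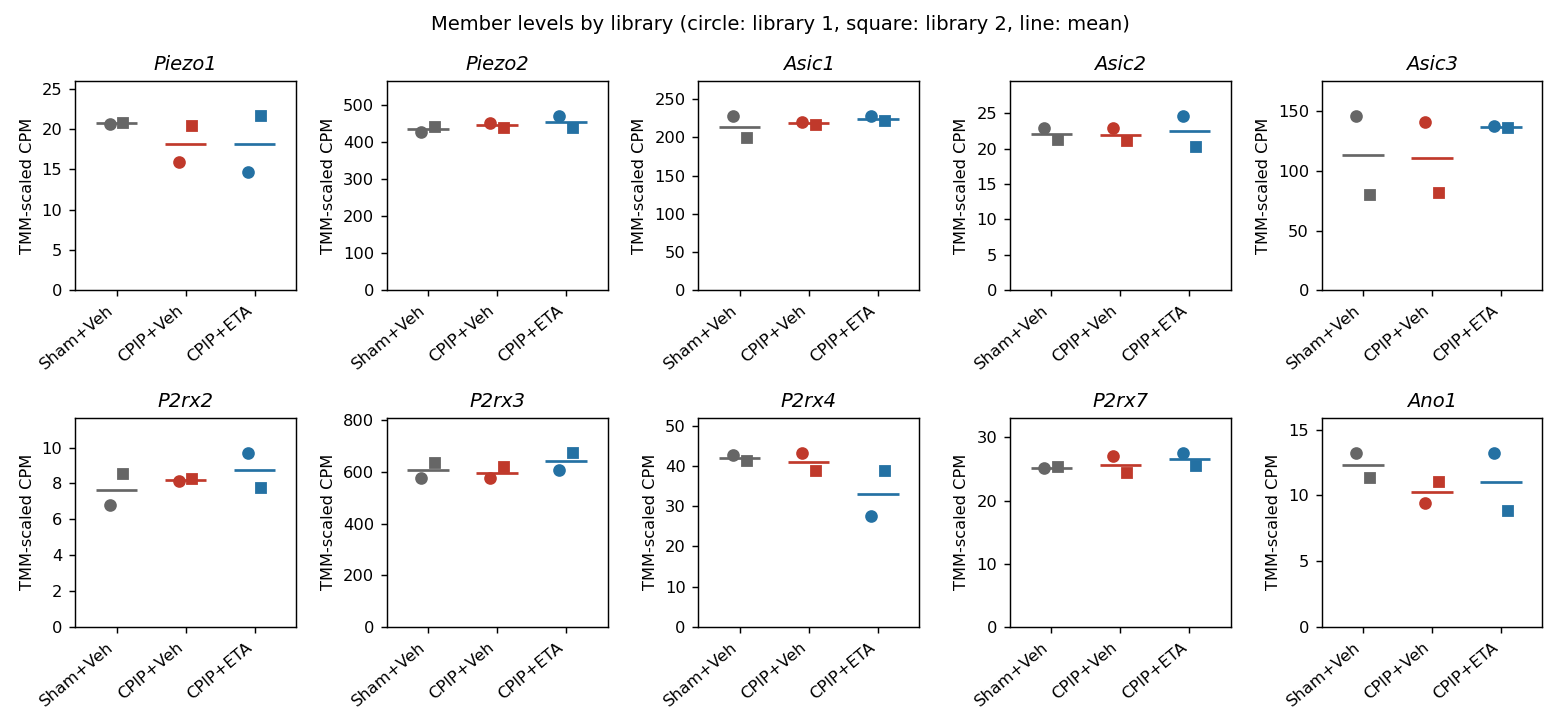
TMM-scaled CPM of each member in each library, with library 1 of a group as a circle, library 2 as a square and the mean of the 2 as a line; every axis starts at 0. Asic3 shows 2 separate levels, near 80 CPM in Sham+Veh 2 and CPIP+Veh 2 and above 130 CPM in the other 4 libraries, while Piezo2, Asic1, P2rx3 and P2rx7 vary less.

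Piezo2 was steady in every condition. It stood at 426.5 and 442 CPM in Sham+Veh, 452 and 439.5 CPM in CPIP+Veh, and 471 and 438 CPM in CPIP+ETA. The groups overlapped in all 3 comparisons, and the highest library was 1.11 times the lowest. Its log2 fold change was 0.04 (SE 0.054, edgeR adjusted p = 0.968) for CPIP+Veh against Sham+Veh and 0.03 (SE 0.054, adjusted p = 0.959) for CPIP+ETA against CPIP+Veh. Against Sham+Veh the etanercept group had 0.07 (SE 0.054, adjusted p = 0.890).

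Piezo1, which is best known from blood vessels, connective tissue and red blood cells, varied more. It stood at 20.6 and 20.8 CPM in Sham+Veh, 15.85 and 20.4 CPM in CPIP+Veh, and 14.7 and 21.6 CPM in CPIP+ETA. The low values were those of CPIP+Veh 1 and CPIP+ETA 1, each set beside a second library at the sham level. Both CPIP+Veh libraries lay below both sham libraries, but the higher one (20.38) was close to the lower sham value (20.58), and 19.5% of all genes tested also had CPIP+Veh below Sham+Veh without overlap. The log2 fold change was -0.19 (SE 0.20, edgeR adjusted p = 0.957) and -0.02 without CPIP+Veh 1. Vessel markers were also lower in CPIP+Veh. The 10 endothelial markers summed to 241.3 and 251.6 CPM in Sham+Veh, 210.3 and 201.8 CPM in CPIP+Veh, and 204.5 and 238 CPM in CPIP+ETA, and the 10 pericyte and smooth muscle markers to 272.6 and 265 CPM, 205.6 and 196.1 CPM, and 196.4 and 239.8 CPM. The 6 red blood cell markers summed to 97.5 and 86.2 CPM in Sham+Veh, 28.8 and 119 CPM in CPIP+Veh, and 313.5 and 185.5 CPM in CPIP+ETA. The part of these cells in the Piezo1 values was not tested. Piezo1 for CPIP+ETA against Sham+Veh had a log2 fold change of -0.19 (SE 0.20, adjusted p = 0.909), -0.49 without CPIP+ETA 2 and 0.07 without CPIP+ETA 1. CPIP+ETA and CPIP+Veh had nearly the same mean, 18.14 and 18.11 CPM (SE of the log2 fold change 0.19, adjusted p = 1).

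The genes around the PIEZO channels in the list of touch partners and other mechanosensitive channels did not pass either. Of its 19 genes 16 were tested, and 0 were called in any comparison. The lowest p belonged to Mtmr2, a lipid phosphatase known to restrain PIEZO2 currents, which stood at 116.5 and 118 CPM in Sham+Veh, 112 and 111 CPM in CPIP+Veh, and 130.4 and 136 CPM in CPIP+ETA. Both etanercept libraries were the highest of the 6 (without overlap, 15.7% of all genes were higher against CPIP+Veh and 17.2% against Sham+Veh). Its log2 fold change for CPIP+ETA against CPIP+Veh was 0.26 (SE 0.051, unadjusted p = 0.0017), but the edgeR adjusted p was 0.857, and it ran from 0.182 (DESeq2) to 0.998 over the 13 alternatives. Against Sham+Veh it was 0.19 (SE 0.051, adjusted p = 0.629). Tmem63c, of a family of stretch- and osmolarity-gated channels, had 0.12 (adjusted p = 0.948) for CPIP+Veh against Sham+Veh, and 0.05 without Sham+Veh 2. Tmem63a had -0.24 (adjusted p = 0.938) for CPIP+ETA against CPIP+Veh, and -0.045 without CPIP+Veh 2. Tmem120a (TACAN), proposed to take part in mechanical pain, had 0.13 (adjusted p = 0.843) for CPIP+ETA against Sham+Veh, and 0.062 without Sham+Veh 2. Mtmr2 also had the second lowest p of the list for CPIP+Veh against Sham+Veh (-0.07, adjusted p = 0.948).

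Among the acid sensors, Asic3 stood apart for its spread. ASIC3 is the ASIC most tied to sensory neurons and responds to the mild acidity of ischaemic muscle. It stood at 146 and 79.8 CPM in Sham+Veh, 141 and 81.3 CPM in CPIP+Veh, and 138 and 136 CPM in CPIP+ETA. Sham+Veh 2 and CPIP+Veh 2 were thus low and the other 4 libraries high, with nothing between, and the highest library was 1.83 times the lowest. The 1459 counts of Sham+Veh 2 give an exact Poisson 95% interval of 75.8 to 84.0 CPM, and the 2702 counts of Sham+Veh 1 one of 140.8 to 152 CPM, for counting error only. The SD of log2 CPM within groups was 0.48 for Asic3, against a median of 0.0705 over the 7935 genes with a mean of at least 20 CPM, of which 42 (0.529%) had a larger one.

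Because the low and high libraries fell in both vehicle groups, the group means of Asic3 say little. They were 113 ± 47.0 CPM in Sham+Veh, 111 ± 42.3 CPM in CPIP+Veh and 137 ± 1.16 CPM in CPIP+ETA (SD, n = 2 libraries each). The log2 fold change was -0.02 (SE 0.32, edgeR adjusted p = 0.997) for CPIP+Veh against Sham+Veh. Leaving out 1 library gave 0.49 (no Sham+Veh 1), -0.39 (no Sham+Veh 2), -0.47 (no CPIP+Veh 1) or 0.32 (no CPIP+Veh 2). For CPIP+ETA against CPIP+Veh it was 0.30 (SE 0.32, adjusted p = 0.946), 0.76 without CPIP+Veh 1 and -0.04 without CPIP+Veh 2. For CPIP+ETA against Sham+Veh it was 0.28 (SE 0.32, adjusted p = 0.916), 0.79 without Sham+Veh 1 and -0.09 without Sham+Veh 2. The sign of each value turned with the vehicle library left out.

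The genes beside Asic3 did not share its 2 levels; they were looked up after its values had been seen, as were those of P2rx4. In the gene order of the GRCr8 assembly, used for names only, the nearest tested genes are Slc4a2, an anion exchanger, and Cdk5, a neuronal kinase, on one side, and Abcb8, a mitochondrial transporter, and Nos3, endothelial nitric oxide synthase, on the other. Slc4a2 ran from 109.3 to 119 CPM over the 6 libraries, Cdk5 from 98.6 to 110.0 CPM and Abcb8 from 40.2 to 45.2 CPM. Nos3 varied most of the neighbours, from 5.16 to 8.17 CPM (1.58 times), but its high library was CPIP+ETA 2, and it stood at 5.91 CPM in Sham+Veh 2 and 5.85 CPM in CPIP+Veh 2. The summed pan-neuronal markers did not share the levels either. Asic3 per 1000 pan-neuronal counts was 6.27 in Sham+Veh 2 and 5.85 in CPIP+Veh 2, and 9.89 to 11.3 in the other 4 libraries. Some single genes were also lowest in these 2 libraries, with smaller differences. Faim2, a neuronal membrane protein, stood there at 125 and 149 CPM, against 159.4 to 183.5 in the other 4. The neuronal marker Snap25 stood there at 1206 and 1175 CPM (others 1236 to 1295), and Asic1 at 199 and 217 CPM (others 220.8 to 228.2). What sets the 2 levels was not tested.

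**Figure D3:**
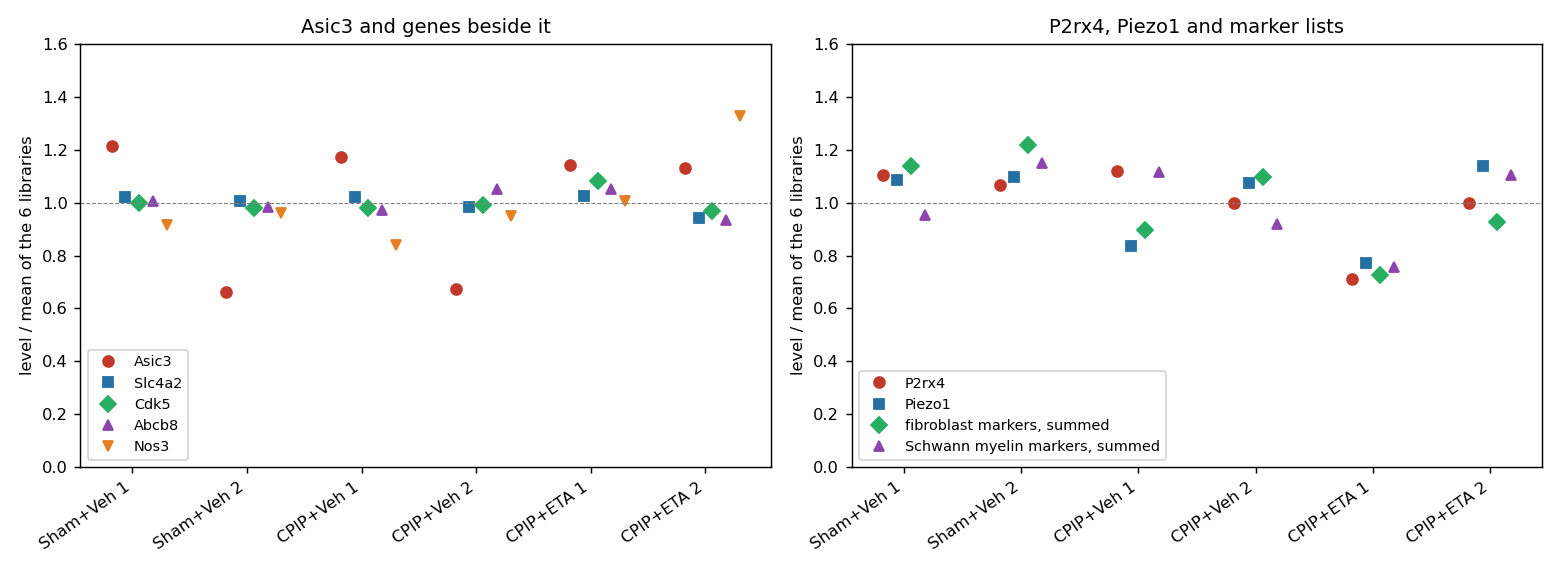
Level of each gene or summed marker list in each library, divided by its mean over the 6 libraries (axis from 0, dashed line at 1). On the left Asic3 is low in Sham+Veh 2 and CPIP+Veh 2 while Slc4a2, Cdk5 and Abcb8 stay near 1 and Nos3 is highest in CPIP+ETA 2; on the right P2rx4, Piezo1 and the fibroblast and Schwann cell myelin markers are all at their lowest in CPIP+ETA 1.

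As the Asic3 gene has the widest spread of the members and P2rx3, another channel of sensory neurons, one of the narrower ones, the 200 bases from 250 to 51 bases before their annotated starts are shown for comparison. They are from RefSeq on the GRCr8 assembly, a later build than the Rnor_6.0 of the counts, 5′ to 3′ along the gene (minus strand for both), at chr4:11657418-11657617 for Asic3 and chr3:90531366-90531565 for P2rx3, with CG dinucleotides in capitals. Both genes, and CG as the feature shown, were chosen after the values and sequences had been seen.
Asic3: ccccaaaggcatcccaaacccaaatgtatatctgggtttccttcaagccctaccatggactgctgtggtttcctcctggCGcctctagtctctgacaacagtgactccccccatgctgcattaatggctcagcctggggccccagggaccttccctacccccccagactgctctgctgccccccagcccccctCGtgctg
P2rx3: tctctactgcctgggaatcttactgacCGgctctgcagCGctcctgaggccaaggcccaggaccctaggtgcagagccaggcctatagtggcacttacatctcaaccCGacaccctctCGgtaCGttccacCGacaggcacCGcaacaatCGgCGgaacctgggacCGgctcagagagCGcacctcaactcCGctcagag
The Asic3 window holds 2 CG dinucleotides and the P2rx3 window shown 12, and 75.9% and 23.1% of the 33469 windows of this length in the table hold as many or more (median 4). P2rx3 has a second annotated start, whose window holds 4 CG (54.2%), the median of all windows. Of the members, 8 matched the table, with 10 windows. Piezo2 and Asic1, also narrow in spread, had 16 and 17 CG, but P2rx7, narrow too, had 6. Ano1, of wider spread, had 10. A relation between CG number and spread was not tested. In all, 10 motifs were searched on both strands. The letters GGGCGG (GC box) were in 5 of the 10 member windows (24.2% of all windows), CCAAT in 2 (28.8%), TATAAA in 0 (9.98%), CACCC in 7 (41.7%), CAGGTG in 2 (13.1%), CAGCTG in 1 (9.44%) and TGACGTCA in 0 (0.944%). The Asic3 window held 3 of the 10: ATTAAT (3.99% of all windows), TTAATG (7.02%), which overlaps it by 5 letters, and TGTGGT (11.9%). None of these was in another member's window, which at such low shares does not set Asic3 apart. Binding was not measured, and a match is a description of the letters only.

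Asic1, a widely expressed acid sensor of neurons, varied by 1.15 times from its lowest to its highest library. Its SD of log2 CPM within groups was 0.083, and 38.3% of the 7935 genes compared had a larger one. It stood at 228 and 199 CPM in Sham+Veh, 221 and 217 CPM in CPIP+Veh, and 228 and 221 CPM in CPIP+ETA. Both etanercept libraries lay above both CPIP+Veh libraries, with 221.4 against 220.8 CPM at the nearest, where 15.7% of all genes tested also had the etanercept group higher without overlap. The log2 fold change was 0.04 (SE 0.071, edgeR adjusted p = 0.959) in that comparison and 0.03 (SE 0.071, adjusted p = 0.981) for CPIP+Veh against Sham+Veh. The value for CPIP+ETA against Sham+Veh was 0.07 (SE 0.071, adjusted p = 0.902).

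Asic2, a subunit that joins ASIC1 and ASIC3 in mixed channels, stood at 22.9 and 21.2 CPM in Sham+Veh, 22.9 and 21.1 CPM in CPIP+Veh, and 24.6 and 20.3 CPM in CPIP+ETA. The groups overlapped in all 3 comparisons, and in each group library 1 was the higher. Its log2 fold changes were -0.0038, 0.03 and 0.03 in the 3 comparisons (SE 0.12 each, edgeR adjusted p from 0.982 to 0.998).

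Of the other acid sensors and ASIC partners, 13 of the 15 with a row were tested, with 0 called. For CPIP+Veh against Sham+Veh, 12 of the 13 had a log2 fold change above 0, where 49% of all genes did (median 0.107, all genes -0.00314). Scaled to pan-neuronal markers this was 6 of 13, where 18.9% of all genes lay above 0 (median -0.00617, all genes -0.115). The sign thus depends on the scaling there, while the list median lay above that of all genes on both scales. For CPIP+ETA against Sham+Veh 12 of the 13 were above 0 (median 0.192, with 49.3% of all genes above 0). With pan-neuronal scaling it was 11 of 13 (median 0.113, with 24.5% of all genes above 0). Stom, a membrane protein that binds and damps ASICs, stood at 21.4 and 19.5 CPM in Sham+Veh and 22.8 and 26.4 CPM in CPIP+Veh (log2 fold change 0.27, SE 0.10, edgeR adjusted p = 0.938, and 0.15 without CPIP+Veh 2). Kcnk18 (TRESK), a potassium channel that quiets sensory neurons, had 0.33 (SE 0.14, adjusted p = 0.805) for CPIP+ETA against Sham+Veh and 0.17 (adjusted p = 0.938) against CPIP+Veh. Gpr132, a receptor linked to acid, had 0.58 (SE 0.31, adjusted p = 0.938) in the latter, and 0.34 without CPIP+ETA 1.

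P2rx3, the ATP receptor of non-peptidergic nociceptors, was close to level across the groups in TMM-scaled CPM. It stood at 575 and 636 CPM in Sham+Veh, 574.5 and 617 CPM in CPIP+Veh, and 607 and 675 CPM in CPIP+ETA. Library 2 was the higher in each group, and the groups overlapped in all 3 comparisons. Its log2 fold change was -0.02 (SE 0.077, edgeR adjusted p = 0.987) for CPIP+Veh against Sham+Veh, 0.11 (SE 0.077, adjusted p = 0.938) for CPIP+ETA against CPIP+Veh and 0.08 (SE 0.077, adjusted p = 0.896) for CPIP+ETA against Sham+Veh.

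P2rx2, whose subunit joins P2X3 in channels that close more slowly, had the fewest counts of the members, 125 to 193 per library. It stood at 6.77 and 8.54 CPM in Sham+Veh, 8.15 and 8.22 CPM in CPIP+Veh, and 9.72 and 7.73 CPM in CPIP+ETA. The groups overlapped in all 3 comparisons. The exact Poisson 95% interval of the lowest library, 5.63 to 8.07 CPM, overlapped that of every library but CPIP+ETA 1 (8.40 to 11.2 CPM). Log2 fold changes of 0.10, 0.09 and 0.19 were found in the 3 comparisons (SE 0.17 each, edgeR adjusted p from 0.893 to 0.977).

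P2rx4 had the lowest p of the members. P2X4 is found in neurons, in macrophages and, on nerve injury, in spinal microglia. The gene stood at 42.8 and 41.4 CPM in Sham+Veh, 43.4 and 38.8 CPM in CPIP+Veh, and 27.55 and 38.8 CPM in CPIP+ETA. CPIP+ETA 1 was the low library, and CPIP+ETA 2 (38.77) lay just under CPIP+Veh 2 (38.79). The etanercept group was thus below CPIP+Veh without overlap by a very narrow margin. It was also below Sham+Veh without overlap, where the lower library stood at 41.4 CPM. In the same direction 16.9% of all genes tested did not overlap against CPIP+Veh and 18.5% against Sham+Veh. The log2 fold change was -0.31 (SE 0.15, unadjusted p = 0.0835, edgeR adjusted p = 0.938) for CPIP+ETA against CPIP+Veh and -0.35 (SE 0.15, unadjusted p = 0.0604, adjusted p = 0.805) against Sham+Veh. Without CPIP+ETA 1 these became -0.08 and -0.11, and without CPIP+ETA 2 they became -0.58 and -0.61. For CPIP+Veh against Sham+Veh the value was -0.04 (SE 0.15, adjusted p = 0.993).

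Some marker lists of other cell types were at their lowest in CPIP+ETA 1, as were P2rx4 and Piezo1, while others were not. The summed level of the 8 fibroblast and matrix markers was 3660 and 3913 CPM in Sham+Veh, 2879 and 3522 CPM in CPIP+Veh, and 2329 in CPIP+ETA 1 and 2974 in CPIP+ETA 2. The 8 Schwann cell myelin markers summed to 9166 CPM in CPIP+ETA 1 and to 11160 to 13920 CPM in the other 5 libraries. In CPIP+Veh 1, where Piezo1 was also low, they summed to 13530 CPM. The 12 macrophage markers did not share the low value of CPIP+ETA 1, at 264.4 CPM there and 276.6 in CPIP+ETA 2, above the other 4 libraries (203.6 to 241). Pan-neuronal markers (13920 CPM) and those of large touch and position sense neurons (23900 CPM) were at their highest in CPIP+ETA 1. The part of any of these cells in the P2rx4 and Piezo1 values was not tested.

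P2rx7, the receptor that links high ATP to inflammasome activation, varied by 1.13 times from its lowest to its highest library. It stood at 25.2 and 25.3 CPM in Sham+Veh, 26.99 and 24.4 CPM in CPIP+Veh, and 27.6 and 25.4 CPM in CPIP+ETA. Both etanercept libraries lay above both sham libraries, with 25.43 against 25.28 CPM at the nearest, where 17.2% of all genes did so. Its log2 fold change was 0.03 (SE 0.088, edgeR adjusted p = 0.989) for CPIP+Veh against Sham+Veh and 0.07 (SE 0.088, adjusted p = 0.920) for CPIP+ETA against Sham+Veh. Against CPIP+Veh the etanercept group had 0.05 (SE 0.088, adjusted p = 0.959). P2rx7 is the next tested gene beside P2rx4 in the GRCr8 order, and it did not share the low value of P2rx4 in CPIP+ETA 1, nor did Anapc5 (246.3 CPM there), while Camkk2 was at its lowest there, at 8.82 CPM against 9.19 to 9.86 in the other 5. Ift81 was low in both etanercept libraries, at 17.6 and 16.9 CPM against 18.6 to 20.1. Of all genes, 16.9% were lower in CPIP+ETA than in CPIP+Veh without overlap, and 18.5% lower than in Sham+Veh.

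The partners of P2X7 in the inflammasome and interleukin-1 pathway gave no call among 7 tested genes in any comparison. Nlrp3, the sensor, had a log2 fold change of 0.35 (SE 0.23, edgeR adjusted p = 0.938) and Il1b, the cytokine, 0.67 (SE 0.72, adjusted p = 0.946) for CPIP+ETA against CPIP+Veh. Il1b stood at 1.08 to 1.62 CPM in the 4 vehicle libraries, 0.705 CPM in CPIP+ETA 1 and 4.30 CPM in CPIP+ETA 2, and without the second it had -1.15 in place of 0.67. Against Sham+Veh it had 0.99 (SE 0.74, adjusted p = 0.887), and -0.82 without that library. Casp1, the protease, had 0.21 (adjusted p = 0.893) in that comparison. For CPIP+Veh against Sham+Veh the NLRP3-binding kinase Nek7 had 0.08 (adjusted p = 0.948) and the adaptor Pycard -0.33 (SE 0.31, adjusted p = 0.957). Without CPIP+Veh 1 these became 0.031 and -0.021, and without CPIP+Veh 2 they became 0.14 and -0.73. Nlrp3 had 0.17 without CPIP+ETA 2.

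Of the other purine receptors 14 of 15 were tested, and 0 were called. P2ry12, an ADP receptor best known from microglia, stood at 4.98 and 5.91 CPM in Sham+Veh, 6.13 and 7.87 CPM in CPIP+Veh, and 5.29 and 4.90 CPM in CPIP+ETA. CPIP+Veh was thus the highest group without overlap, where 17.6% of all genes were higher in CPIP+Veh than in Sham+Veh without overlap and 16.9% lower in CPIP+ETA than in CPIP+Veh. The log2 fold change was 0.36 (SE 0.18, edgeR adjusted p = 0.938) against Sham+Veh and, for CPIP+ETA against CPIP+Veh, -0.46 (SE 0.18, adjusted p = 0.938), comparisons that share the CPIP+Veh libraries. Without CPIP+Veh 2 these became 0.17 and -0.27. P2ry6, a UDP receptor, had -0.29 (adjusted p = 0.955) for CPIP+Veh against Sham+Veh, and P2ry14, a receptor of UDP-sugars, -0.45 (adjusted p = 0.843) for CPIP+ETA against Sham+Veh. P2ry14 had -0.0895 without Sham+Veh 1 and -0.73 without Sham+Veh 2, and P2ry6 -0.19 without CPIP+Veh 2. P2ry10, a receptor of white blood cells at 0.325 to 0.756 CPM, had 0.77 (SE 0.46, adjusted p = 0.938) for CPIP+ETA against CPIP+Veh and 0.98 (SE 0.47, adjusted p = 0.814) against Sham+Veh.

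Genes that release ATP or break it down outside the cell gave 0 calls among 17 tested of 19. Panx2, a pannexin channel, had a log2 fold change of -0.20 (SE 0.089, edgeR adjusted p = 0.938) and Adk, the kinase that clears adenosine, 0.14 (SE 0.065, adjusted p = 0.938) for CPIP+Veh against Sham+Veh. Adk also had 0.18 (SE 0.065, adjusted p = 0.760) for CPIP+ETA against Sham+Veh, where Enpp3, an ectoenzyme that splits ATP, had -0.23 (SE 0.093, adjusted p = 0.779). Ada, which converts adenosine to inosine, and Enpp1, another enzyme that splits ATP, had -0.22 and -0.28 (adjusted p = 0.938 each) for CPIP+ETA against CPIP+Veh. Without CPIP+Veh 1, Enpp1 had 0.0076 and Panx2 -0.10.

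Ano1 varied widely within CPIP+ETA. It stood at 13.2 and 11.3 CPM in Sham+Veh, 9.42 and 11.05 CPM in CPIP+Veh, and 13.25 and 8.82 CPM in CPIP+ETA. CPIP+Veh lay below Sham+Veh without overlap (19.5% of all genes did so), and CPIP+ETA held both the highest and the lowest library of the 6. Its log2 fold change was -0.26 (SE 0.20, edgeR adjusted p = 0.955) for CPIP+Veh against Sham+Veh, but -0.14 if Sham+Veh 1 was left out and -0.15 if CPIP+Veh 1 was. It was 0.11 (SE 0.21, adjusted p = 0.959) for CPIP+ETA against CPIP+Veh, with -0.21 without CPIP+ETA 1 and 0.37 without CPIP+ETA 2. It was, for CPIP+ETA against Sham+Veh, -0.15 (SE 0.20, adjusted p = 0.929), with -0.47 without CPIP+ETA 1 and 0.11 without CPIP+ETA 2.

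The other anoctamins and the genes that load chloride or open ANO1 gave 0 calls among 11 tested of 19. Ano3, an anoctamin of DRG neurons, stood at 93.5 and 96.0 CPM in Sham+Veh, 94.9 and 66.6 CPM in CPIP+Veh, and 105 and 109.3 CPM in CPIP+ETA. Its log2 fold change for CPIP+ETA against CPIP+Veh was 0.41 (SE 0.15, edgeR adjusted p = 0.938) and 0.18 without CPIP+Veh 2, the low library. Itpr1, the calcium store channel that supplies ANO1, had 0.21 (SE 0.12, adjusted p = 0.938) in the same comparison, and 0.092 without CPIP+ETA 2. Ano10 and Ano8 had 0.11 and -0.12 (adjusted p = 0.938 and 0.939) for CPIP+Veh against Sham+Veh, and Ano4 and Ano3 0.14 and 0.18 (adjusted p = 0.809 and 0.890) for CPIP+ETA against Sham+Veh.

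**Figure D4:**
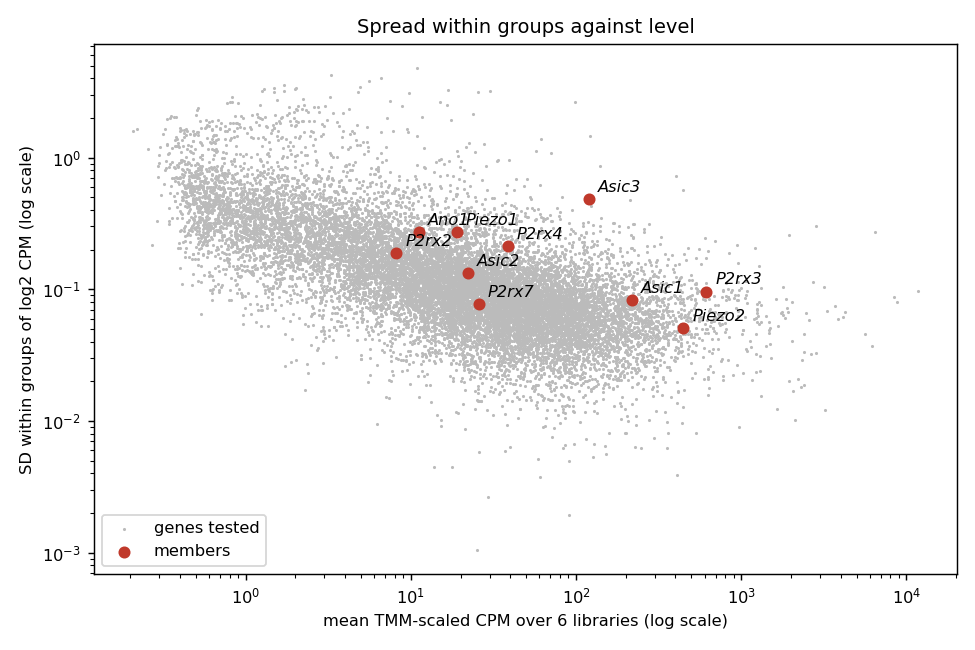
SD of log2 CPM between libraries of the same group against mean TMM-scaled CPM, both on log scales, for all 15531 genes tested (grey) and the 10 members (red, named). Asic3 lies far above genes of its level, while Piezo2, Asic1, P2rx3 and P2rx7 lie within the bulk of genes.

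The members had different nearest genes over the 6 libraries. The list genes closest to each member were taken as the pair with the smallest root-mean-square (RMS) difference in centred log2 CPM over the 6 libraries, among 183 genes of the pathway and marker lists with at least 1 CPM. For P2rx3 they were Scn11a, a sodium channel of nociceptors (RMS 0.0547), and Sox10, a glial transcription factor (0.0556, median of the 183 genes 0.170). For Asic2 the closest were the neurofilaments Nefm (0.0346) and Nefh (0.0406) of large neurons (median 0.205). These likenesses are descriptions of 6 libraries that share depth and scaling.

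For Piezo2 the closest were Atp2a2, a calcium pump (0.0265), and Ret, a growth factor receptor (0.0352, median 0.170). For Asic1 they were Tmem120a (0.0355) and Entpd3, an ectoenzyme that splits ATP (0.0428, median 0.177), and for P2rx7 Cntnap2, a neuronal adhesion protein (0.0264), and Scn9a, a sodium channel of nociceptors (0.0377, median 0.177). For P2rx2 they were P2rx6, another P2X subunit (0.0582), and P2ry1, an ADP receptor (0.0696, median 0.238).

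The RMS grows with a member's own spread, so its size is not compared between members. For Piezo1 they were Pdgfra, a receptor of fibroblasts (0.0841), and Cd14, a macrophage receptor (0.108, median 0.252). For P2rx4 they were Dcn, a proteoglycan of fibroblasts (0.0975), and Mdfic, a partner of PIEZO channels (0.107, median 0.270). Dcn stood at 675 CPM in CPIP+ETA 1 and at 952 to 1102 CPM in the other 5 libraries. Asic3 had Faim2, a neuronal membrane protein, at 0.241 and Nlrp3 at 0.250 (median 0.424), and Ano1 had P2ry6 at 0.133 and Whrn at 0.138 (median 0.282).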

How the data were processed

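Bulk RNA-seq was read from 6 libraries of rat dorsal root ganglia, 2 per group, each matched to its column by title. The values are expected counts, 32.7% of them whole, as the authors deposited them, on build Rnor_6.0 per the submitters' processing notes. For aligner, counting program, strand and annotation, nothing is given in the sources used here. The members and gene lists were chosen with earlier results of these data known.

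Blank values (2907 genes blank in every library) were read as 0 and counts were rounded. In R 4.3.3, edgeR 4.0.16 fitted all 6 libraries with group as the only term, after filterByExpr (minimum count 10, total 15; 15531 genes) and TMM scaling, with 3 residual degrees of freedom. Calls used a Benjamini-Hochberg adjusted p under 0.05 over all genes tested. SE is the absolute log2 fold change over the square root of F, and 95% intervals use edgeR's total degrees of freedom. The SD within groups and the nearest patterns used log2 CPM with a prior count of 2. The procedure was tested on simulated data.

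All 10 members are named, and of each of 6 pathway lists the 2 genes with the lowest p in each comparison; the 2 list genes nearest each member are also named. One gene this rule names is not reported here. Genes beside Asic3 and P2rx4, and the promoter motifs, were chosen after the values had been seen. Alternatives were RLE, library-total and pan-neuronal scaling, DESeq2 1.42.0 on the genes that passed the edgeR filter, no filter, a fit of just the 2 groups, a block by title number, a threshold of 0.1, and leaving out single libraries. Gene identifiers of all 10 members matched the GRCr8 table. Figures were drawn with matplotlib 3.10.9.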

Additional observations from a re-analysis of the deposited data

How the results depend on the processing

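No member was called under any alternative: over 390 values (10 members, 3 comparisons, 13 alternatives each) the smallest adjusted p was 0.185, and 7 had an unadjusted p under 0.05. The named genes of the pathway lists, whose alternatives were added after seeing the data, also gave 0 calls. In 45 of the 390 the sign differed from the value reported, so no direction is read for a member where this occurred. Over all genes, DESeq2 called 49, 21 and 50 in the 3 comparisons, against 3, 0 and 3 with edgeR (767, 800 and 990 at an unadjusted p under 0.05); the cause was not tested. With just the 2 groups fitted, CPIP+ETA against Sham+Veh gave 1 gene, with fewer samples in the fit. Leaving out 1 library, where a lone library takes its spread from the others, gave 1 to 3 genes for CPIP+Veh against Sham+Veh (1 without CPIP+Veh 2), 0 for CPIP+ETA against CPIP+Veh and 1 to 2 for CPIP+ETA against Sham+Veh (1 without CPIP+Veh 1, CPIP+Veh 2 or CPIP+ETA 1).

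Taken over all genes, same-numbered libraries did not deviate together (correlations of 0.0345, -0.106 and 0.0503). Such a correlation cannot tell whether a smaller set of genes did. The 8 skeletal muscle markers summed higher in library 2 of every group (Sham+Veh 29.11 against 14.46 CPM, CPIP+Veh 69.46 against 15.04, CPIP+ETA 43.94 against 9.219). The Schwann cell myelin markers kept no such order, with library 1 the higher in CPIP+Veh only. What same-numbered libraries share was not tested. With the replicate block the counts were 3, 0 and 3 genes and 0 members.

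Pan-neuronal scaling moved the median of all genes by -0.11, 0.032 and -0.08 in the 3 comparisons. It reversed the log2 fold change for CPIP+Veh against Sham+Veh of Piezo2 (-0.076), Asic1 (-0.078), P2rx2 (-0.016), P2rx7 (-0.087), Ano10 (-0.0041) and Nek7 (-0.027), and for CPIP+ETA against Sham+Veh of Piezo2 (-0.016), Asic1 (-0.0072), Asic2 (-0.056) and P2rx7 (-0.0094). Asic2 for CPIP+Veh against Sham+Veh was 0.0024 with no filter and 0.00069 with just the 2 groups. Piezo1 for CPIP+ETA against CPIP+Veh, reported at about 0, was 0.00069 with RLE, 0.0017 with library totals, 0.039 with pan-neuronal scaling, 0.0017 with DESeq2 and 0.0014 with just the 2 groups.

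Leaving out 1 library moved all 30 member values, and 23 of 36 of the pathway genes, by over 1.5 times or past 0 for at least 1 library. Reversals on leaving out 1 library had these ranges. For CPIP+Veh against Sham+Veh they were -0.0597 to 0.14 for Asic1, -0.063 to 0.061 for Asic2, -0.47 to 0.49 for Asic3, -0.053 to 0.28 for P2rx2, -0.088 to 0.054 for P2rx3, -0.12 to 0.043 for P2rx4 and -0.049 to 0.097 for P2rx7. For CPIP+ETA against CPIP+Veh they were -0.31 to 0.26 for Piezo1, -0.022 to 0.0801 for Piezo2, -0.12 to 0.16 for Asic2, -0.044 to 0.76 for Asic3, -0.0797 to 0.25 for P2rx2, -0.025 to 0.13 for P2rx7, -0.21 to 0.37 for Ano1, -0.51 to 0.0076 for Enpp1 and -1.15 to 1.46 for Il1b. For CPIP+ETA against Sham+Veh they were -0.49 to 0.071 for Piezo1, -0.0197 to 0.18 for Asic1, -0.11 to 0.16 for Asic2, -0.094 to 0.79 for Asic3, -0.47 to 0.11 for Ano1 and -0.82 to 1.78 for Il1b. With 2 libraries a group, depth was least for P2rx2, at 125 to 193 counts a library.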

Other observations

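Several genes that belong with these channels were hardly counted in the ganglion. Stoml3, a partner that sensitises PIEZO channels in mouse touch neurons, was counted 2 times over the 6 libraries together, and Tmc1, a channel subunit of hair cells, 6 times. Asic4 was counted 28 times in all (2 to 8 per library), Ano2, an anoctamin of olfactory neurons, 32 times, and Bdkrb1, the inducible bradykinin receptor, 1 time. These genes did not pass the filter and were not compared between groups.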
